A study of Mus musculus with 24 samples.

Results

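The 43 genes described here encode proteins of DNA replication and cell division, among them the proliferation marker Mki67, the MCM helicase and the mitotic kinases. They were taken from a list of symbols, and all 43 were found among the 54446 Ensembl gene IDs of the deposited table. RNA-seq of polyadenylated RNA was measured in 24 libraries of mouse corpus callosum, the large white matter tract between the brain's hemispheres. The groups were cuprizone BTKi (n = 8), cuprizone vehicle (n = 8), naive BTKi (n = 4) and naive vehicle (n = 4). Cuprizone is a copper chelator that, fed to mice, kills oligodendrocytes and strips myelin from this tract. BTKi is an inhibitor of Bruton's tyrosine kinase, a signalling enzyme of B cells, macrophages and microglia, and it was started in cuprizone mice once disease had been induced. The labels do not name the compound, its dose, the length of either treatment, or the strain, age and sex of the mice. Nothing in them states that each library of a group is a different animal. The p-values therefore measure the spread between these libraries, some of which may be technical.

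A cell enters the cycle when D-type cyclins and their kinases inactivate the retinoblastoma protein, which frees E2F factors to switch on genes of S phase such as the MCM helicase, the clamp PCNA and the enzymes of nucleotide synthesis. Genes of mitosis follow later, mostly through a promoter element named CHR, often with CCAAT boxes, bound by the MuvB complex and NF-Y. In healthy adult white matter few cells divide, chiefly oligodendrocyte precursors. During cuprizone feeding, microglia and precursors are known to proliferate, and transcripts of mitosis are therefore a usual readout of dividing cells.

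Promoters are shown for an S phase pair and a mitotic pair, because the letters differ between these classes. The windows run from 250 bases before to 50 bases after the start of the gene, read from RefSeq on GRCm38.p6. Mcm3 is printed as a gene that passed a test below, and Mcm6, Ccnb2 and Mki67 were picked after the values were seen. All 4 genes lie on the minus strand, and each sequence is written 5′ to 3′ along the gene. The windows are chr1:20820263-20820562 for Mcm3, chr1:128359656-128359955 for Mcm6, chr9:70421505-70421804 for Ccnb2 and chr7:135716330-135716629 for Mki67. Capitals mark matches on either strand. The CHR was searched as TTTGAA and in the variant form TTTAAA, the CCAAT box by the letters of its name, and the E2F site as TTTCCCGC, TTTCGCGC, TTTGCCGC or TTTGGCGC.
Mcm3: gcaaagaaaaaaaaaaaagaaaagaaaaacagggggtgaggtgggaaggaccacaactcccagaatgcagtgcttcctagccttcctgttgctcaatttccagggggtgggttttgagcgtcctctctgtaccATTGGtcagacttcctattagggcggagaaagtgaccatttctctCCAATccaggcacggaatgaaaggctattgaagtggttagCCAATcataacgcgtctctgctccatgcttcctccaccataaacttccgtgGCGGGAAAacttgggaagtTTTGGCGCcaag
Mcm6: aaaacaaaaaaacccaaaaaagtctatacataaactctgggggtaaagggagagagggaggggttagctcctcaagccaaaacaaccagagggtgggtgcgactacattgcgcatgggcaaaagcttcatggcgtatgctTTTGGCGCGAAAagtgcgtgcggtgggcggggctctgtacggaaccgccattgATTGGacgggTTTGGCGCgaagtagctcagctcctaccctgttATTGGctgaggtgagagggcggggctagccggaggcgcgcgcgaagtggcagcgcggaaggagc
Ccnb2: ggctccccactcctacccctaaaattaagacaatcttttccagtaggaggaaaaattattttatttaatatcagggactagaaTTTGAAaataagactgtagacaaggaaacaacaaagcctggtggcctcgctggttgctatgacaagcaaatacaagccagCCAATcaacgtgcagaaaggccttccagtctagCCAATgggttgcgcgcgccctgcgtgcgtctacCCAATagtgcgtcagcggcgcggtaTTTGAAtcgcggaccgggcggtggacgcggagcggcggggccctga
Mki67: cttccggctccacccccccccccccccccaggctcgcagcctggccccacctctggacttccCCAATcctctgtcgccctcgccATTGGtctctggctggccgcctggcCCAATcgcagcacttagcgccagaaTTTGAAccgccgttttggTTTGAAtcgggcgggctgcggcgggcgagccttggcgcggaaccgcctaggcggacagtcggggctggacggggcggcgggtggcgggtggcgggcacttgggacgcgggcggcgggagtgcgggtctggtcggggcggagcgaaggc
The Mcm3 window holds 2 E2F matches and 3 CCAAT boxes, and the Mcm6 window 3 and 2, of which 2 E2F matches overlap on opposite strands. Neither window has a CHR match. Ccnb2 and Mki67 each have 2 CHR matches and 3 CCAAT boxes, with 0 E2F matches. Over the 41 RefSeq promoters of 37 of the genes, a CHR was found in 73.2%, a CCAAT box in 85.4% and an E2F site in 14.6%. Of all 32851 mouse promoter windows of that length, 27.6% hold a CHR, 37.4% a CCAAT box and 2.26% an E2F site. The classes of members differ in the same count. CHR and CCAAT box stood together in 84.6% of 26 mitotic promoters and in 28.6% of 14 promoters of replication and G1 genes, against 10.7% of all windows. An E2F site stood in 3.85% of the mitotic promoters and in 35.7% of the replication and G1 promoters. These matches describe letters only. No promoter sequence was at hand for Aurkb, Ccna2, Ccnd1, Kif20a, Mcm4 and Tpx2.

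The genes were expressed at low levels throughout. FPKM scales the fragments of a gene to its length and to the size of the library, so levels can be set side by side between genes. Only Pcna, the sliding clamp of the replication fork, and Ccnd1, cyclin D1, averaged above 10 FPKM over the 24 libraries, at 26.1 and 12.4 FPKM. Another 10 genes averaged 1 to 10 FPKM, led by the helicase subunit Mcm7 at 5.92 FPKM, the transcription factor E2f1 at 5.22 FPKM and the ribonucleotide reductase subunit Rrm1 at 4.47 FPKM. The other 31 averaged under 1 FPKM. The lowest were the checkpoint kinase Bub1 at 0.140 FPKM, the microtubule depolymerase Kif2c at 0.148 FPKM and the kinetochore protein Cenpf at 0.164 FPKM, and Mki67 averaged 0.325 FPKM. No member was listed at 0 in any library. Genes with a mean of at least 0.5 FPKM over the 24 libraries were tested, which kept 29 of the 43, with Prc1 (0.510 FPKM) just inside that limit and Kif11 (0.451 FPKM) just outside. A second fit with a limit of 0.1 FPKM took in all 43.

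Depth was nearly even, at about 29800000 to 31000000 fragments for all libraries but cuprizone BTKi 5, which had about 26500000 fragments, as read from the spacing of low values. At that depth 12 of the 14 genes under the limit rested on about 18.5 to 99.8 fragments per library, and the 29 above it on 24.7 to 1907 fragments. Kif11 and Kif20a had no annotated length and no such estimate. Counting alone gives a median coefficient of variation of 10.0% per gene. Within groups the median was 23.2% in cuprizone BTKi, 28.3% in cuprizone vehicle, 17.6% in naive BTKi and 23.5% in naive vehicle libraries. The tissue carried its defining transcripts, with summed FPKM of 10 mature oligodendrocyte markers of 1750 ± 491 in cuprizone BTKi, 1464 ± 228 in cuprizone vehicle, 3062 ± 28.7 in naive BTKi and 3907 ± 675 in naive vehicle libraries (SD). Markers of neighbouring structures were also present, with Snap25, a neuronal gene, at 984 FPKM. Summed neuron markers had 2480 ± 88.4 FPKM in cuprizone BTKi and 2573 ± 99.2 FPKM in cuprizone vehicle libraries. In naive BTKi and naive vehicle libraries they had 2570.5 ± 103 and 2528 ± 174 FPKM. Summed choroid plexus markers had 912 ± 311 FPKM in cuprizone BTKi and 753 ± 622 FPKM in cuprizone vehicle libraries (32.3 to 1545 FPKM). The naive BTKi and naive vehicle sums were 1237 ± 934 and 1567 ± 332 FPKM.

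**Figure D1:**
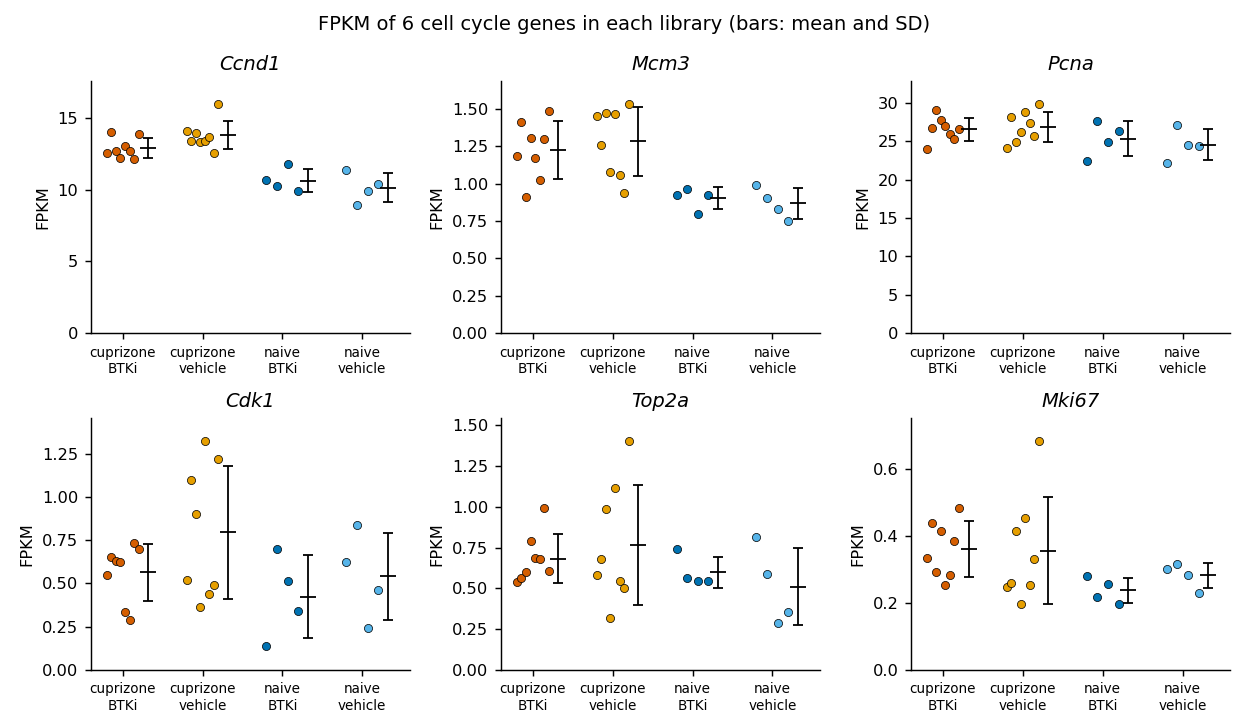
FPKM of Ccnd1, Mcm3, Pcna, Cdk1, Top2a and Mki67 in each of the 24 libraries (points), with the group mean and SD (bars), for cuprizone BTKi, cuprizone vehicle, naive BTKi and naive vehicle from left to right. The cuprizone points of Ccnd1 lie above all naive points, while the groups overlap for the other 5 genes.

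The first comparison asks what cuprizone did in mice given vehicle. Ccnd1 and Mcm3 rose, and the other 27 tested genes did not pass the test, among them the mitotic kinase Cdk1 and the topoisomerase Top2a. Called higher were thus 2 of 29 genes and called lower 0, where 10.2% of all 15216 tested genes were called higher and 15.0% in either direction (limma on log2(FPKM + 0.5), Benjamini-Hochberg adjusted p under 0.05). The members' share of calls was not above that background. In bulk tissue fewer cells of a type and less RNA per cell cannot be told apart, and the same holds for more of either.

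Ccnd1 encodes cyclin D1, the partner of CDK4 and CDK6 that carries growth factor signals into the cell cycle. Its gene lies at chr7:144929931-144939925 on the minus strand (GENCODE M21, GRCm38). Cuprizone vehicle libraries had 14.1, 13.4, 14.0, 13.4, 13.4, 13.7, 12.6 and 16.0 FPKM, against 11.4, 8.91, 9.93 and 10.4 FPKM in naive vehicle libraries. Every cuprizone vehicle library lay above every naive vehicle library. The means were 13.8 ± 0.994 FPKM in cuprizone vehicle and 10.2 ± 1.02 FPKM in naive vehicle libraries (SD, n = 8 and 4), a ratio of 1.36. On the log2 scale of the fit the difference was 0.43 (SE 0.06, 95% interval 0.31 to 0.55, limma adjusted p = 1.401e-05). Of the exon bases of Ccnd1, 23.4% are shared with a gene on the other strand, and the sources used here do not state whether the counting used strand.

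Mcm3 encodes a subunit of the hexameric helicase that is loaded on origins in G1 and unwinds DNA in S phase. The gene lies at chr1:20802968-20820312 on the minus strand. It averaged 1.28 ± 0.231 FPKM in cuprizone vehicle libraries (lowest 0.935, median 1.36, highest 1.53; n = 8), against 0.994, 0.905, 0.828 and 0.750 FPKM in naive vehicle libraries. The groups overlapped at their edges. The log2 difference was 0.37 (SE 0.10, limma adjusted p = 0.01137). Without naive vehicle 4 it was 0.33 and the call was lost (adjusted p = 0.05421). The other 5 MCM subunits did not pass the test. Mcm2 averaged 1.84 ± 0.188 FPKM in cuprizone vehicle and 1.55 ± 0.178 FPKM in naive vehicle libraries (log2 difference 0.19, adjusted p = 0.1738, limma). Mcm4, Mcm5 and Mcm7 averaged 3.00, 2.00 and 5.75 FPKM in cuprizone vehicle libraries, against 3.21, 2.15 and 6.13 FPKM in naive vehicle libraries, and Mcm6 2.90 against 2.58 FPKM. Summed over the 6 subunits, the level was 16.8 ± 1.19 FPKM in cuprizone vehicle and 16.5 ± 1.07 FPKM in naive vehicle libraries.

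The remaining S phase genes did not pass the test. Pcna had 26.9 ± 1.98 FPKM in cuprizone vehicle and 24.5 ± 2.04 FPKM in naive vehicle libraries (log2 difference 0.13, adjusted p = 0.1682, limma). E2f1, the activator that drives S phase genes, had 5.23 ± 0.357 FPKM in cuprizone vehicle and 5.32 ± 0.347 FPKM in naive vehicle libraries. The groups overlapped for both genes. Of the enzymes that make deoxynucleotides, Rrm1 had 4.55 ± 0.282 against 4.17 ± 0.424 FPKM and Rrm2, its regulated partner, 0.956 ± 0.252 against 0.978 ± 0.300 FPKM. Tyms, thymidylate synthase, had 0.793 ± 0.227 FPKM in cuprizone vehicle and 0.938 ± 0.308 FPKM in naive vehicle libraries. Tk1, thymidine kinase of S phase, had 0.374 ± 0.106 against 0.272 ± 0.0534 FPKM in the same order, and Uhrf1, which maintains DNA methylation behind the fork, 0.489 ± 0.125 against 0.433 ± 0.0688 FPKM.

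The mitotic genes were spread widely within cuprizone vehicle libraries and did not pass the test. Cdk1, the kinase that drives entry into mitosis, had 0.796 ± 0.387 FPKM in cuprizone vehicle libraries (lowest 0.366, median 0.711, highest 1.33), against 0.624, 0.837, 0.241 and 0.462 FPKM in naive vehicle libraries. The log2 difference was 0.29 (95% interval -0.13 to 0.72, limma adjusted p = 0.38). Top2a, which untangles sister DNA, had 0.766 ± 0.367 FPKM in cuprizone vehicle libraries (lowest 0.320, median 0.629, highest 1.41), against 0.812, 0.589, 0.289 and 0.354 FPKM in naive vehicle libraries (log2 difference 0.30, adjusted p = 0.2642). For both genes several cuprizone vehicle libraries fell inside the naive range. With the 3 cuprizone vehicle libraries poorest in choroid plexus transcripts left out (1, 4 and 7), Top2a reached 0.51 (adjusted p = 0.03728). Mki67, whose protein coats chromosomes of dividing cells, had 0.354 ± 0.160 FPKM in cuprizone vehicle libraries (lowest 0.195, median 0.294, highest 0.683), against 0.300, 0.315, 0.283 and 0.229 FPKM in naive vehicle libraries. The median of the cuprizone vehicle libraries lay within the naive range. In the fit of all 43 genes, on log2(FPKM + 0.1), the difference of Mki67 was 0.19 with a 95% interval of -0.23 to 0.61 (limma adjusted p = 0.6227).

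Other mitotic members can be given by role. Of the cyclins, Ccna2 averaged 1.08 FPKM in cuprizone vehicle and 0.876 FPKM in naive vehicle libraries, Ccnb1 0.326 against 0.307 FPKM and Ccnb2 0.578 against 0.391 FPKM. The kinases Plk1 and Aurka, which build the spindle poles, averaged 1.07 and 0.670 FPKM in cuprizone vehicle libraries, against 0.946 and 0.679 FPKM in naive vehicle libraries. In the spindle checkpoint, Bub1b averaged 1.05 against 0.872 FPKM. Its partner kinase Bub1 averaged 0.155 ± 0.0749 FPKM in cuprizone vehicle and 0.230 ± 0.242 FPKM in naive vehicle libraries, where values ran from 0.0391 up to 0.573 FPKM. The passenger complex, which corrects chromosome attachment, gave 0.317 against 0.335 FPKM for the kinase Aurkb, 0.581 against 0.515 FPKM for Birc5 (survivin) and 0.667 against 0.733 FPKM for Cdca8 (borealin). Of the genes of anaphase control, the ubiquitin-conjugating enzyme Ube2c had 0.701 ± 0.351 FPKM in cuprizone vehicle and 0.432 ± 0.266 FPKM in naive vehicle libraries, and the activator Cdc20 had 0.583 ± 0.214 against 0.612 ± 0.178 FPKM. Ube2c had the largest log2 difference of the 43 in the wider fit, at 0.63 (limma adjusted p = 0.2004). Racgap1, a regulator of the cleavage furrow, averaged 3.54 FPKM in cuprizone vehicle and 3.38 FPKM in naive vehicle libraries, while its partners Kif23 and Ect2 averaged 0.769 against 0.755 FPKM and 0.259 against 0.261 FPKM.

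In the fit of all 43 genes, Ccnd1 and Mcm3 were again the only calls for cuprizone vehicle against naive vehicle, where 12.7% of 18991 genes were called in either direction. The median log2 difference of the 43 was 0.126, against 0.0276 over all genes, and 62.8% of the members lay above 0, against 57.4% of all genes. The 95% intervals of 39 of the 43 lay within a log2 difference of 1 in either direction. Cuprizone vehicle 5 and 8, the libraries with the highest mitotic sums, were left out in a fit chosen after the data were seen. The members' median was then 0.00833, a fall that this choice favours.

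**Figure D2:**
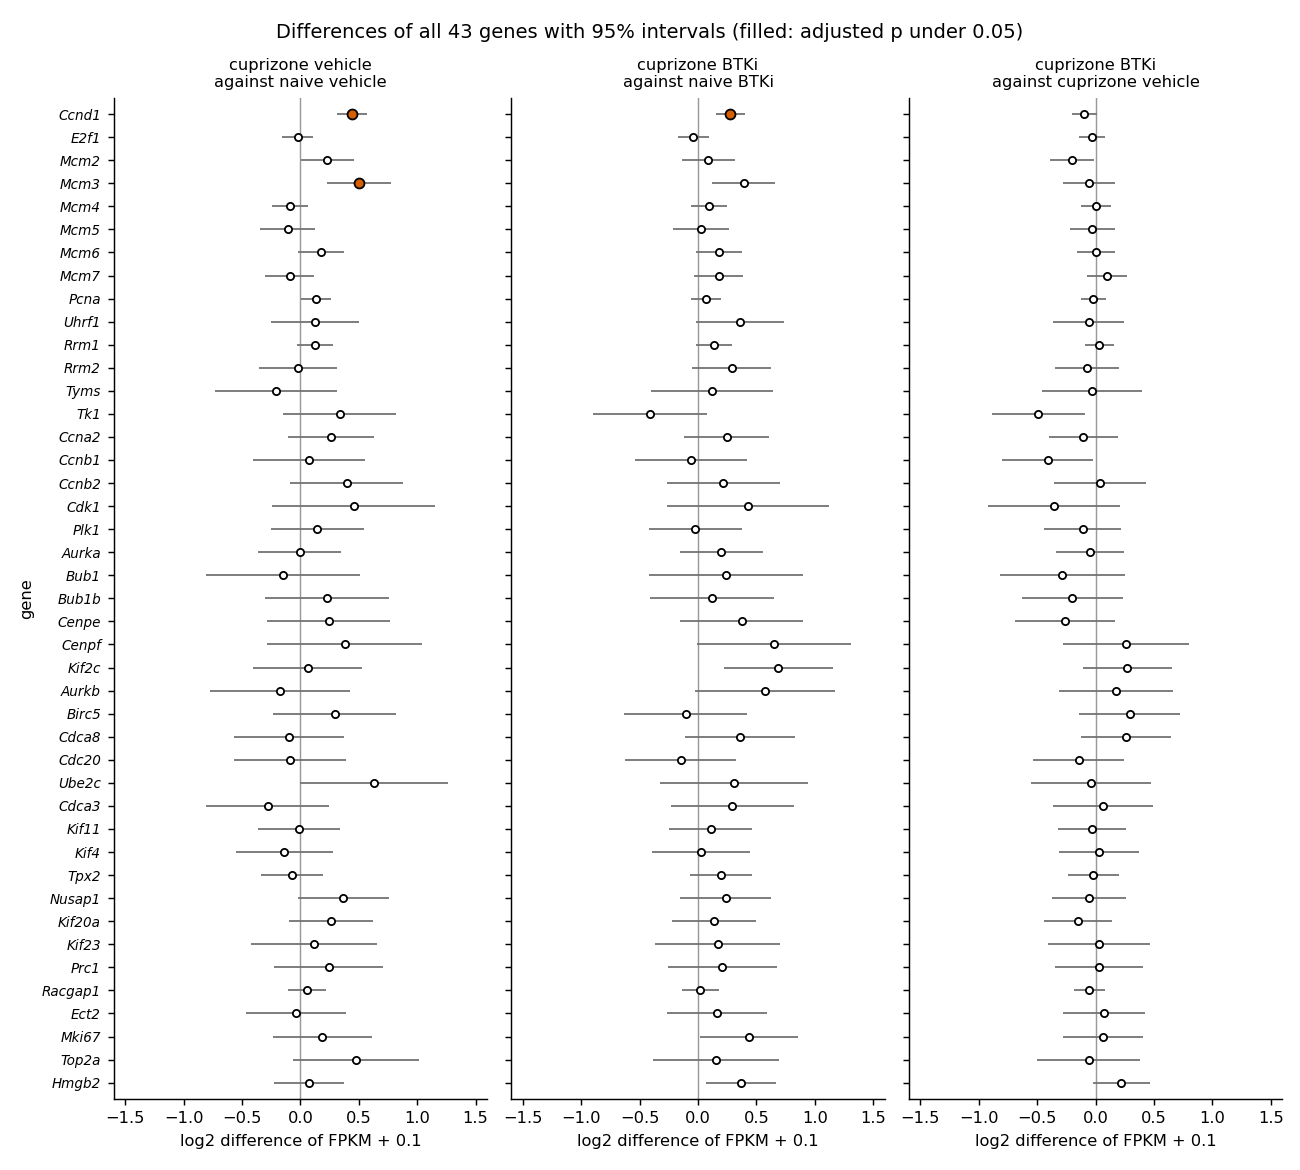
Log2 differences of the 43 genes with 95% intervals from the fit on log2(FPKM + 0.1), grouped by role, for cuprizone vehicle minus naive vehicle, cuprizone BTKi minus naive BTKi and cuprizone BTKi minus cuprizone vehicle. Filled points passed an adjusted p of 0.05, which were Ccnd1 and Mcm3 in the first panel, Ccnd1 in the second and 0 genes in the third.

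Under BTKi, cuprizone was again accompanied by a rise of Ccnd1, and the other 28 tested genes did not pass the test. The call rate was 1 of 29 higher and 0 lower, against 6.11% of all tested genes higher and 7.87% in either direction. Ccnd1 had 12.9 ± 0.7101 FPKM in cuprizone BTKi libraries (lowest 12.2, median 12.7, highest 14.0), against 10.7, 10.2, 11.8 and 9.89 FPKM in naive BTKi libraries. The groups did not overlap. The log2 difference was 0.27 (SE 0.06, limma adjusted p = 0.004196), a ratio of means of 1.21.

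Mcm3 had 1.22 ± 0.192 FPKM in cuprizone BTKi libraries (lowest 0.911, median 1.24, highest 1.48), against 0.924, 0.967, 0.797 and 0.925 FPKM in naive BTKi libraries. Its log2 difference of 0.29 did not pass (adjusted p = 0.0814, limma). Leaving out cuprizone BTKi 3 gave a call of Mcm3 (0.33, adjusted p = 0.03557), and leaving out cuprizone BTKi 2 a call of Hmgb2 (0.35, adjusted p = 0.03794). Hmgb2, a chromatin protein abundant in dividing cells, had 1.54 ± 0.357 FPKM in cuprizone BTKi libraries (lowest 0.991, median 1.48, highest 2.13), against 1.13, 1.23, 1.01 and 1.22 FPKM in naive BTKi libraries. All but 1 of the cuprizone BTKi libraries lay above the naive BTKi range.

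The groups under BTKi did not overlap for Ccnd1 and Kif2c among the 43 genes. How many of all genes separate in this way was not counted, so this is no result about the members. Kif2c, which removes wrongly attached microtubules from kinetochores, had 0.192 ± 0.0583 FPKM in cuprizone BTKi libraries (lowest 0.103, median 0.194, highest 0.267), against 0.0981, 0.0692, 0.0557 and 0.0929 FPKM in naive BTKi libraries. These levels stand on about 19.7 fragments per library, and the log2 difference of 0.69 on log2(FPKM + 0.1) did not pass (limma adjusted p = 0.07333). It passed without cuprizone BTKi 6 (0.76, adjusted p = 0.04408) and without cuprizone vehicle 8, which enters through the shared estimate of spread (0.69, adjusted p = 0.03903), also when cuprizone vehicle 5 was left out with it (adjusted p = 0.04322). Mki67 had 0.360 ± 0.0829 FPKM in cuprizone BTKi libraries (lowest 0.252, median 0.360, highest 0.483), against 0.278, 0.216, 0.257 and 0.197 FPKM in naive BTKi libraries (log2 difference 0.44, 95% interval 0.01 to 0.86, adjusted p = 0.2737). The 2 groups overlapped in the low part of the cuprizone BTKi range.

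In the wider fit 37 of the 43 log2 differences under BTKi were above 0, which is 86.0% against 57.7% of all genes, with a median of 0.178 against 0.0247 over all genes. In the fit on log2(FPKM + 0.5), 25 of the 29 tested genes were above 0, with a median of 0.126 against 0.021 over all genes. There median ratio scaling left 24 of 29 above 0, with a median of 0.107, and quantile normalization left 19 of 29, with a median of 0.0236 against -0.0176 over all genes. For naive BTKi against naive vehicle 12 of the 43 log2 differences were above 0 in the wider fit, which is 27.9% against 43.1% of all genes, with a median of -0.0883 against -0.0221 over all genes. The 2 comparisons share the naive BTKi libraries. After quantile normalization 18 of the 29 tested genes were above 0 in that comparison, against 10 of 29 without it. In the wider fit of cuprizone BTKi against naive BTKi 6.80% of all genes were called, and of the members Ccnd1 alone. The 6 genes under 0 there were Tk1, Cdc20, Birc5, Ccnb1, E2f1 and Plk1, named here after their values were seen. Tk1 had 0.249 ± 0.105 FPKM in cuprizone BTKi and 0.345 ± 0.0874 FPKM in naive BTKi libraries.

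The next comparison asks what the inhibitor did in cuprizone mice. None of the members passed the test. The count was 0 of 29 with limma, against 0.177% of all tested genes, with 1 gene at an unadjusted p under 0.05, and 0 of 43 in the wider fit, against 0.0948% of all genes, with 3 at an unadjusted p under 0.05. Over all genes, 1338 of 15216 and 1562 of 18991 had an unadjusted p under 0.05 in these fits. The smallest adjusted p of the 29 was 0.506 (limma). The 95% intervals of the 29 genes on log2(FPKM + 0.5) ran between -0.592 and 0.442, so that in this fit none of them took in a log2 difference of 1. For genes near the pseudocount a doubling of FPKM is less than 1 on this scale, so doublings of such genes are not excluded. In the wider fit the intervals of the 43 ran between -0.923 and 0.799.

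Ccnd1 had 12.9 ± 0.7101 FPKM in cuprizone BTKi and 13.8 ± 0.994 FPKM in cuprizone vehicle libraries, a log2 difference of -0.09 (95% interval -0.19 to 0.01, limma adjusted p = 0.6109). Mcm2, the gene at an unadjusted p under 0.05, had a lowest value of 1.38, a median of 1.56 and a highest of 1.86 FPKM in cuprizone BTKi libraries, against 1.55, 1.83 and 2.12 FPKM in cuprizone vehicle libraries. The ranges overlapped, and the log2 difference was -0.17 (adjusted p = 0.5064, limma). In the wider fit the 3 genes were Mcm2, Tk1 and Ccnb1. Tk1 had 0.249 ± 0.105 FPKM in cuprizone BTKi and 0.374 ± 0.106 FPKM in cuprizone vehicle libraries (log2 difference -0.49, adjusted p = 0.4799). Ccnb1, the cyclin that activates Cdk1, had 0.231 ± 0.0997 FPKM in cuprizone BTKi and 0.326 ± 0.0695 FPKM in cuprizone vehicle libraries (log2 difference -0.41, adjusted p = 0.5649).

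For Mki67, Top2a and Cdk1 the cuprizone vehicle libraries were spread more widely than the cuprizone BTKi libraries. Mki67 averaged 0.360 ± 0.0829 FPKM in cuprizone BTKi and 0.354 ± 0.160 FPKM in cuprizone vehicle libraries, with a log2 difference of 0.07 (95% interval -0.28 to 0.41) in the wider fit. Top2a averaged 0.682 ± 0.148 FPKM in cuprizone BTKi and 0.766 ± 0.367 FPKM in cuprizone vehicle libraries (log2 difference -0.06, 95% interval -0.35 to 0.23). Without cuprizone vehicle 8 the difference of Top2a was 0.03, and it passed no test either way. Cdk1 averaged 0.564 ± 0.166 FPKM in cuprizone BTKi and 0.796 ± 0.387 FPKM in cuprizone vehicle libraries (ratio 0.709, 95% interval of the log2 difference -0.59 to 0.10). An adjusted p above the threshold does not show that the groups are alike.

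In naive mice the inhibitor likewise gave 0 calls among the 29 genes with limma, against 0.217% of all tested genes, with 1 gene at an unadjusted p under 0.05, and 0 of 43 in the wider fit, against 0.184% of all genes. That gene was Birc5, with 0.768, 0.731, 0.995 and 0.633 FPKM in naive BTKi libraries, against 0.827, 0.748, 0.335 and 0.150 FPKM in naive vehicle libraries. The groups overlapped, since naive vehicle 1 and 2 lay within the naive BTKi range (log2 difference 0.39, adjusted p = 0.3589, limma). Aurkb had 0.214, 0.186, 0.168 and 0.192 FPKM in naive BTKi libraries, against 0.282, 0.457, 0.293 and 0.308 FPKM in naive vehicle libraries. Its groups did not overlap, and its log2 difference in the wider fit did not pass (-0.57, adjusted p = 0.516, limma). The share of all genes without overlap was not counted here either. In this comparison 1922 of all 15216 tested genes had an unadjusted p under 0.05 (limma).

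Whether the inhibitor acted differently in cuprizone and naive mice was tested as a difference of differences. With limma 0 of 29 genes passed, against 0.125% of all tested genes, with 0 at an unadjusted p under 0.05, and 0 of 43 in the wider fit, against 0.0948% of all genes, with 1 at an unadjusted p under 0.05. That gene was Tk1, at -0.74 on the log2 scale (adjusted p = 0.5308, limma). Over all genes, 1482 of 15216 and 1705 of 18991 had an unadjusted p under 0.05 in these fits. The comparisons of BTKi with vehicle and of cuprizone with naive mice share libraries, so their values are given side by side here and were not correlated.

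Much of the spread of these genes lay in a few libraries. Cuprizone vehicle 8 had the highest value of all 24 libraries for 20 of the 43 genes, or 46.5%, whereas it was highest for 8.84% of all tested genes. Cuprizone vehicle 5 was highest for 6 genes, or 14.0% against 5.91% of all genes, and cuprizone BTKi 8 for 5 genes, or 11.6% against 8.33%. The 2 cuprizone vehicle libraries differed in which genes these were. All 6 genes of cuprizone vehicle 5 were mitotic, while cuprizone vehicle 8 was highest for 11 of the 28 mitotic genes and for 9 of the other 15, which include Ccnd1 (16.0 FPKM), E2f1 (6.04 FPKM) and Rrm2 (1.497 FPKM). At the other end, cuprizone vehicle 4 was lowest of its group for 18 genes and cuprizone vehicle 7 for 12. Naive vehicle libraries were uneven too. Within that group, naive vehicle 2 was highest for 22 of the 43 genes, or 51.2% against 36.9% of all tested genes, and naive vehicle 4 was lowest for 20. How often a library was lowest over all genes was not counted, so the counts of lowest values are no result about the members.

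The summed level of the 28 mitotic genes, Mki67 and Top2a included, shows this most plainly. It was 17.6 ± 1.84 FPKM in cuprizone BTKi libraries (15.5 to 20.7), 18.4 ± 4.10 FPKM in cuprizone vehicle libraries (14.5 to 25.8), 15.3 ± 0.547 FPKM in naive BTKi libraries (14.6 to 16.0) and 16.6 ± 2.65 FPKM in naive vehicle libraries (13.5 to 19.0). Cuprizone vehicle 8 reached 25.8 FPKM and cuprizone vehicle 5 reached 23.7 FPKM. The other 6 cuprizone vehicle libraries averaged 16.3 ± 1.20 FPKM and lay within the naive vehicle range. Since the 2 highest libraries were set aside for these sums, a lower mean of the other 6 follows from the choice. Leaving out cuprizone vehicle 5 and 8, a choice made after the data were seen, kept the calls of Ccnd1 and Mcm3 against naive vehicle (Mcm3 0.31, adjusted p = 0.04801, limma).

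**Figure D3:**
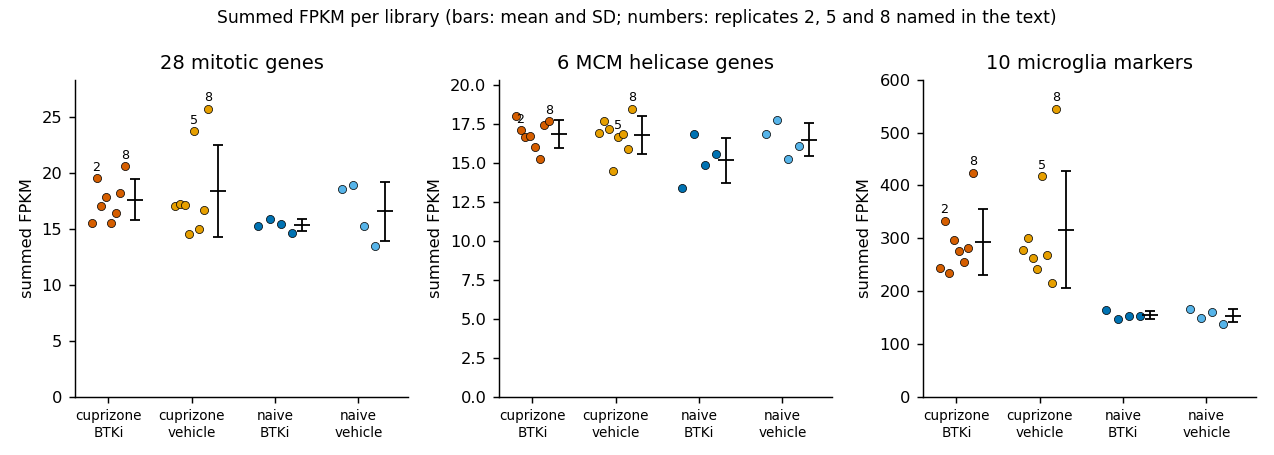
Summed FPKM per library of the 28 mitotic genes, the 6 MCM genes and 10 microglia markers, in the order cuprizone BTKi, cuprizone vehicle, naive BTKi and naive vehicle, with replicates 2, 5 and 8 numbered. Cuprizone vehicle 8 and 5 stand highest for the mitotic sum, at 25.8 and 23.7 FPKM, and cuprizone vehicle 8 is also highest for the microglia sum, at 545 FPKM.

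Markers of cells that could divide were summed in the same libraries. The summed FPKM of 10 microglia markers, which include C1qa, was 293 ± 61.7 in cuprizone BTKi, 316 ± 111 in cuprizone vehicle, 155 ± 7.15 in naive BTKi and 154 ± 12.4 in naive vehicle libraries. Of these markers, 7 of 10 were called higher in cuprizone vehicle than in naive vehicle libraries, and 7 of 10 higher in cuprizone BTKi than in naive BTKi libraries (limma). Of all tested genes 10.2% and 6.11% were called higher in these comparisons. Their sum was highest in cuprizone vehicle 8 at 545 FPKM, cuprizone BTKi 8 at 424 FPKM and cuprizone vehicle 5 at 418 FPKM, and the other 6 cuprizone vehicle libraries averaged 261 ± 29.4 FPKM. The mitotic sum of those 6 libraries lay within the naive range while their microglia sums lay above it, at 215 FPKM or more. Naive vehicle 1 and 2 had mitotic sums of 18.6 and 19.0 FPKM with microglia sums of 166 and 149 FPKM. What part microglia had in the mitotic values was not tested.

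Oligodendrocyte precursor markers, which include Pdgfra and Cspg4, summed to 112 ± 7.499 FPKM in cuprizone BTKi, 110 ± 7.20 FPKM in cuprizone vehicle, 103 ± 3.56 FPKM in naive BTKi and 117 ± 11.0 FPKM in naive vehicle libraries. The highest of the 10 were Ptprz1, Sox10 and Olig2, at means of 37.7, 20.2 and 12.1 FPKM. These weigh most in the sum, and which cells carried it was not tested. Of the 10, 0 were called higher and 1 lower in cuprizone vehicle, and 3 higher in cuprizone BTKi, each against its naive group. Of all tested genes 15.0% were called in either direction under vehicle, and 6.11% were called higher under BTKi. Markers listed for the stem cells of the neighbouring subventricular zone summed to 61.7 ± 3.37 FPKM in cuprizone BTKi, 59.8 ± 5.35 FPKM in cuprizone vehicle, 48.4 ± 2.28 FPKM in naive BTKi and 50.5 ± 2.86 FPKM in naive vehicle libraries. For cuprizone vehicle against naive vehicle 2 of them were called higher and 1 lower, where 15.0% of all tested genes were called in either direction. The highest of these stem cell markers were Sox2, Thbs4 and Fabp7, and which cells carried their sum was not tested. Astrocyte markers summed to 1224 ± 77.6 FPKM in cuprizone BTKi and 1200 ± 63.2 FPKM in cuprizone vehicle libraries. The naive BTKi and naive vehicle sums were 908 ± 28.4 and 910 ± 62.3 FPKM. Of 10 neuroblast markers 0 were called in either cuprizone comparison, where 15.0% of all tested genes were called under vehicle and 7.87% under BTKi. Of 10 T and NK cell markers 7 averaged under 0.1 FPKM, and of 10 neutrophil markers 8 did, with Ly6g listed at 0 in every library. Their part in the members' values was not tested.

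The wider machinery of the cell cycle was read from 10 lists of 154 further genes, none of them members, of which 107 were tested. For cuprizone vehicle against naive vehicle 7 were called higher and 2 lower, or 8.41%, where 15.0% of all genes were called. Cdkn1a, which encodes the kinase inhibitor p21 that halts the cycle downstream of p53, rose most on the scale of the fit. It had 18.2 ± 3.33 FPKM in cuprizone vehicle and 7.81 ± 1.55 FPKM in naive vehicle libraries, a ratio of 2.32 with groups that did not overlap (log2 difference 1.17, SE 0.16, limma adjusted p = 9.756e-06). It also rose under BTKi, with 17.2 ± 3.68 FPKM in cuprizone BTKi and 8.72 ± 0.955 FPKM in naive BTKi libraries (0.91, adjusted p = 0.0003442). Under vehicle it was the only called gene among 8 tested inhibitors and pocket proteins.

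Myc, a transcription factor that promotes growth and cell cycle entry, had 2.70 ± 0.471 FPKM in cuprizone vehicle and 1.54 ± 0.348 FPKM in naive vehicle libraries (log2 difference 0.65, adjusted p = 0.0001892, limma). Under BTKi it had 2.54 ± 0.357 FPKM in cuprizone and 1.65 ± 0.131 FPKM in naive libraries (0.49, adjusted p = 0.005079). Ccnd2, cyclin D2, rose under vehicle as Ccnd1 did, with 15.5 ± 1.03 FPKM in cuprizone vehicle and 12.8 ± 1.20 FPKM in naive vehicle libraries (0.27, adjusted p = 0.003908). Of 24 tested genes of origin licensing and the fork, 2 were called higher, where 10.2% of all tested genes were called higher. Cdt1, which loads the MCM helicase on origins, had 1.11 ± 0.146 FPKM in cuprizone vehicle and 0.768 ± 0.0267 FPKM in naive vehicle libraries (0.34, adjusted p = 0.008605). Gins2, a subunit of the active helicase, had 0.748 ± 0.329 FPKM in cuprizone vehicle and 0.304 ± 0.0837 FPKM in naive vehicle libraries (0.60, adjusted p = 0.03109). Its ratio of means, 2.46, was above that of Cdkn1a. The remaining higher calls were E2f3 (0.20, adjusted p = 0.02522) and the helicase Blm (0.32, adjusted p = 0.03985). Quantile normalization ended the calls of E2f3, Gins2 and Blm (adjusted p = 0.05676, 0.1222 and 0.08664). Leaving out single libraries also ended the calls of Gins2 (naive vehicle 3 or 4, cuprizone vehicle 3, 4 or 8; adjusted p 0.05316 to 0.09274), E2f3 (naive vehicle 1 or 3; 0.05035 to 0.1494) and Blm (naive vehicle 1, 3 or 4, cuprizone vehicle 1, 4, 5 or 8; 0.05327 to 0.1379).

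The lower calls under vehicle were Anln and Hmgn2. Anln encodes anillin, the scaffold of the contractile ring, which also assembles septins in mature myelin. It fell to 3.74 ± 0.550 FPKM in cuprizone vehicle libraries, against 12.3 ± 2.76 FPKM in naive vehicle libraries, a ratio of 0.304 (log2 difference -1.58, limma adjusted p = 2.926e-08). Under BTKi it fell to 4.05 ± 0.932 FPKM in cuprizone libraries, against 9.73 ± 0.846 FPKM in naive libraries (-1.19, adjusted p = 3.316e-06). All 10 mature oligodendrocyte markers were also called lower in both comparisons, and their part in the fall of Anln was not tested. Hmgn2, a nucleosome-binding protein, was lower by a log2 difference of -0.19 under vehicle (adjusted p = 0.004588). Of the lists of kinetochore, nucleotide supply and mitotic kinase genes, 0 of 8, 0 of 12 and 0 of 11 tested genes were called under vehicle, where 15.0% of all genes were called.

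Under BTKi 4 of the 107 genes were called higher and 2 lower in cuprizone libraries, or 5.61%, where 7.87% of all genes were called. Besides Cdkn1a, Myc and Anln these were Rb1, the retinoblastoma gene (0.18, adjusted p = 0.02303), Dbf4, the activator of the origin-firing kinase Cdc7 (0.33, adjusted p = 0.01169), and Stmn1, a microtubule-destabilizing protein of dividing cells and neurons (-0.20, adjusted p = 0.009586, limma). Their calls were lost without single naive BTKi libraries, namely 1, 2 or 4 for Rb1 (adjusted p 0.05526 to 0.1062), and 3 for Dbf4 (0.09711) and for Stmn1 (0.05813). For BTKi against vehicle 0 of the 107 were called with limma. Of all tested genes 0.177% were called in cuprizone mice and 0.217% in naive mice. An unadjusted p under 0.05 was reached by 14 of the 107 in cuprizone mice and by 11 in naive mice. Over all 15216 tested genes, 1338 and 1922 reached it. Blm, a helicase that resolves stalled forks, came closest in cuprizone mice, with 1.24 ± 0.220 FPKM in cuprizone BTKi and 1.76 ± 0.289 FPKM in cuprizone vehicle libraries (log2 difference -0.38, adjusted p = 0.06488). The highest cuprizone BTKi value, 1.480 FPKM, overlapped the lowest cuprizone vehicle value, 1.477 FPKM.

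**Figure D4:**
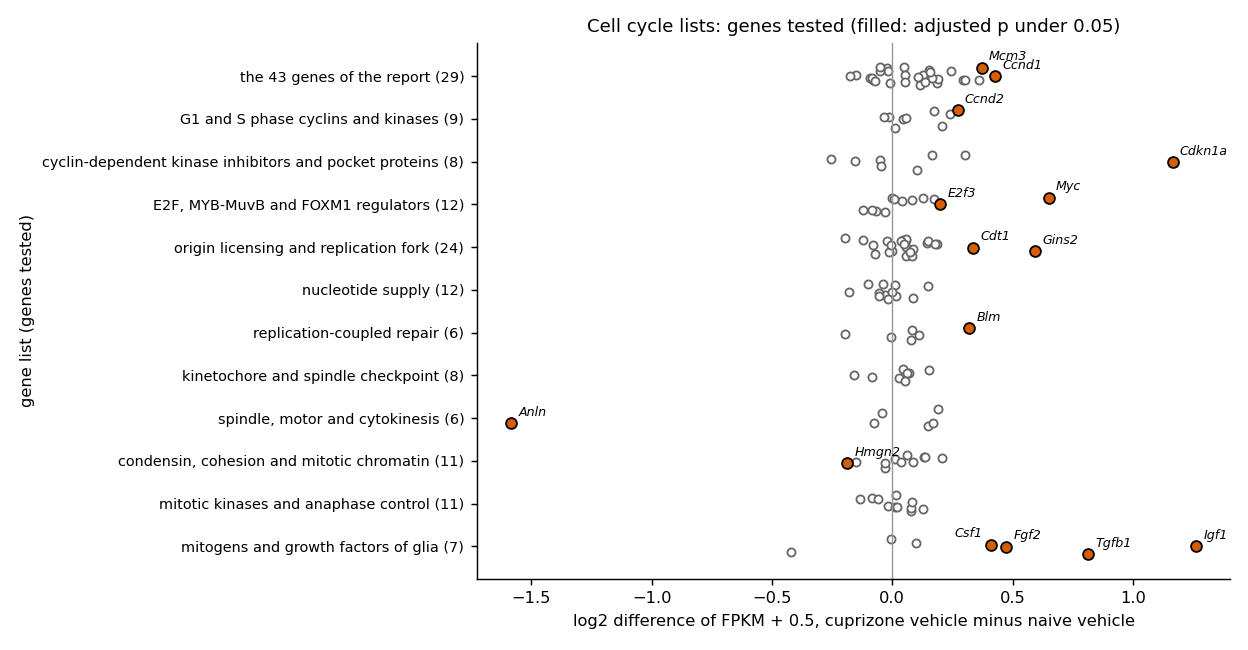
Log2 differences, on log2(FPKM + 0.5), of cuprizone vehicle minus naive vehicle libraries for the tested members and for 11 further lists of cell cycle genes and growth factors, 1 point a gene. Filled and named points passed an adjusted p of 0.05, with Cdkn1a at 1.17 and Igf1 at 1.26 farthest above 0 and Anln at -1.58 farthest below.

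Signals that reach the cell cycle from outside were read from a list of growth factors, of which 7 were tested. Under vehicle 4 were called higher in cuprizone libraries, with log2 differences of 1.26 for Igf1, 0.81 for Tgfb1, 0.47 for Fgf2 and 0.41 for Csf1 (limma adjusted p at most 0.009701). Of all tested genes 10.2% were called higher in this comparison. Igf1, a survival and growth factor for oligodendrocytes, had 3.41 ± 1.49 FPKM in cuprizone vehicle and 1.04 ± 0.162 FPKM in naive vehicle libraries. Csf1 is the growth factor that microglia depend on. Under BTKi the same 4 genes were called higher, with log2 differences of 0.71 for Igf1, 0.81 for Tgfb1, 0.44 for Fgf2 and 0.38 for Csf1, where 6.11% of all tested genes were called higher. The calls of Igf1 and Csf1 under BTKi were each lost when any 1 of the 4 naive BTKi libraries or cuprizone BTKi 8 was left out, with adjusted p up to 0.0752 for Igf1 and up to 0.07788 for Csf1. For BTKi against vehicle 0 of the 7 were called with limma, with 1 at an unadjusted p under 0.05 in cuprizone mice (Csf1, adjusted p = 0.2791) and 0 in naive mice. Of all tested genes 0.177% and 0.217% were called in these comparisons.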

How the data were processed

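The authors deposited 1 table of FPKM values for 54446 Ensembl gene IDs in 24 libraries. Per the labels' protocols, polyadenylated RNA was made into libraries with a TruSeq stranded kit. The sources used here name no aligner, counter, strand setting, build or annotation. FPKM is a share of the library, and a gene drops where others take more. Total FPKM ran between 462521 and 496350. The 15216 genes with a mean of at least 0.5 FPKM entered limma 3.58.1 (R 4.3.3, eBayes with trend) as log2(FPKM + 0.5). The model held all 4 groups and no covariates, and p-values were adjusted after Benjamini-Hochberg over all tested genes of a comparison, with a threshold of 0.05. A wider fit used a limit and a pseudocount of 0.1 FPKM (18991 genes). The fits were tested on simulated data. Since FPKM is no count, no count test was run, and differences near the pseudocount are understated. Relative depth was read from the spacing of low values, and 90.3% of 46802 values lay within 0.1 of a whole multiple. The unit of each gene and the depths were fitted to these same values, which raises this share. The 20% that evenly spread values would give is therefore no fair comparison for it.

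Alternatives changed the pseudocount, the filter, the scaling, the groups in the fit and the replicate block, and left out single libraries. Promoters were matched by symbol in a RefSeq table and motifs searched in Python 3.11.15. Members are printed by symbol, and of the other lists up to 4 called genes with the largest change for cuprizone vehicle against naive vehicle. Outside that rule, Rb1, Dbf4 and Stmn1 are named because they were called for cuprizone BTKi against naive BTKi. The members and the gene lists were chosen with earlier results of these data known. Of the 43 genes, 41 had coordinates in GENCODE M21, of which 12 share exon bases with another gene and 5 have named pseudogene copies (Pcna, Tyms, Ccnb1, Ccnb2 and Kif4), which could take or lend reads.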

Additional observations from a re-analysis of the deposited data

Results flagged for a closer look

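Dixon's test for a value far from the rest, which chance passes about 1 time in 20, was run on 184 sets of values. Each set was 1 gene or 1 sum of genes in a group of 4 or 8 libraries, so the sets are not independent. Such a value was found in 10 sets, which is about what chance gives at that rate. Cuprizone vehicle 8 held 3 of them. In that library Ccnd1, cyclin D1, had 15.99 FPKM, with the others of its group between 12.6 and 14.1 FPKM. E2f1 had 6.044 FPKM there, against 4.86 to 5.33 FPKM in the others, and Rrm2 had 1.497 FPKM, against 0.683 to 1.06 FPKM. In cuprizone BTKi 2 the checkpoint kinase Bub1 had 0.2899 FPKM (others 0.0571 to 0.149) and Aurkb 0.8189 FPKM (others 0.188 to 0.393).

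In naive BTKi libraries Bub1b had 1.288 FPKM in library 4 (others 0.6246 to 0.707), the kinetochore motor Cenpe 0.5315 FPKM in library 3 (others 0.181 to 0.186) and Top2a 0.7391 FPKM in library 1 (others 0.543 to 0.561). Cenpf was low in naive BTKi 3, at 0.0832 FPKM (others 0.0920 to 0.0931). Aurkb in naive vehicle 2 had 0.4574 FPKM (others 0.282 to 0.308).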

How the results depend on the processing

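The members called kept their number, 2 for cuprizone against naive under vehicle, 1 under BTKi and 0 for BTKi against vehicle or for the difference, under another pseudocount, no filter, both other scalings, fits of only the compared groups and the replicate block, except that leaving out the libraries poor in choroid plexus transcripts gave 3 under vehicle. Leaving out single libraries gave 1 to 2 calls under vehicle and 1 to 2 under BTKi. No called direction of a named gene reversed. Of differences that were not called, Mcm3 for BTKi in naive mice ran between -0.005879 and 0.07976 and Top2a for BTKi in cuprizone mice between -0.1402 and 0.03361 as single libraries were left out, and without cuprizone vehicle 5 and 8 the second comparison gave 0.01342 for Mcm3 and 0.1158 for Top2a. Among the other lists, calls for cuprizone under vehicle were lost for Gins2 and Blm without a filter (adjusted p = 0.06699 and 0.08333) and in fits of only the compared groups (0.05332 and 0.06992) and without the libraries poor in choroid plexus transcripts (0.0553 and 0.06859), for Blm under median ratio scaling (0.06047), and for E2f3, Gins2 and Blm with the replicate block (0.05768, 0.06682 and 0.189) and without cuprizone vehicle 5 and 8 (0.07205, 0.0941 and 0.1426). Under BTKi, quantile normalization ended the calls of Rb1 (0.1204), Dbf4 (0.08834) and Igf1 (0.05129), the replicate block those of Rb1 (0.1458) and Dbf4 (0.0785), no filter those of Igf1 (0.07463) and Csf1 (0.06513), and median ratio scaling and a fit of only these groups that of Rb1 (0.07805 and 0.06114). The labels do not state whether equal replicate numbers pair libraries. Of 28 pairs with the same number, 8 correlated above 0.1 (range -0.274 to 0.324). Pairs with different numbers were not correlated, so these values cannot decide it. With the replicate block Ccnd1 stood at 0.42 (adjusted p = 7.125e-05, limma) and Mcm3 at 0.38 (adjusted p = 0.01775). The members' median for cuprizone under vehicle, 0.107 over 29 genes, was 0.0298 with the block, 0.0321 after quantile normalization and 0.0105 without cuprizone vehicle 5 and 8; for BTKi in cuprizone mice it was -0.0226 and, without those libraries, 0.0244; for BTKi in naive mice it was -0.0506 and, after quantile normalization, 0.0111. Over all genes, 27 were called for BTKi in cuprizone mice (16 without a filter, 11 without the libraries poor in choroid plexus transcripts), 33 for BTKi in naive mice (21 and 19 in the same alternatives, 3 with only these groups in the fit) and 19 for the difference (9 with the replicate block, 7 without the libraries poor in choroid plexus transcripts), which has no fit of fewer groups. Cuprizone vehicle 5 and 8 were picked after the data were seen as high in the mitotic genes, so values without them are shifted by that choice. The causes were not tested. Depth limits Bub1 and Kif2c most, at 18.5 and 19.7 fragments a library, of the 41 members with an estimate.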
